A study of Mus musculus with 6 samples.

Results

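The genes described here make and load MHC class I molecules, and their mRNA was measured by RNA sequencing of inguinal adipose tissue (iAT) from 6 mice. The set holds 10 genes chosen by symbol, of the 19831 genes in the deposited table, and all 10 were found there. It comprises the class I heavy chains *H2-D1* and *H2-K1*, their light chain *B2m*, the peptide loading genes *Tap1*, *Tap2* and *Tapbp*, the immunoproteasome subunits *Psmb8*, *Psmb9* and *Psmb10*, and the transactivator *Nlrc5*. Of these, 7 lie on the stretch of chromosome 17 that holds the major histocompatibility complex (MHC), and *B2m*, *Psmb10* and *Nlrc5* lie elsewhere. There were 3 wild-type samples and 3 knockout samples (Npffr1-KO) without *Npffr1*, which encodes a receptor of neuropeptide FF, all taken on postnatal day 6 from mice kept under SPF conditions. Strain, sex, litter and the kind of deletion are not given in the labels, and nothing in them says whether any samples were littermates.

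MHC class I molecules display short peptides from inside the cell to CD8+ T cells and are found on nearly all nucleated cells. The peptides are cut by the proteasome, which under inflammatory cytokines exchanges its catalytic subunits for those of the immunoproteasome. They enter the endoplasmic reticulum through the TAP transporter and are fitted into the heavy chain with the help of tapasin. White adipose tissue holds adipocytes, endothelial cells, macrophages and lymphocytes, all of which can carry class I, so whole tissue does not tell which cells a transcript came from. In such bulk samples, more cells of a type and more RNA per cell cannot be told apart.

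The promoters of several of these genes share short elements, and they are shown first because the members with them lie both on and off the MHC stretch. Class I promoters are known for an enhancer with a kappaB site, for an interferon response element, and for an enhanceosome of W/S, X and Y boxes on which NLRC5 acts with the RFX, CREB/ATF and NF-Y proteins. RefSeq promoter windows (build GRCm38.p6), from 250 bases before to 50 bases after the transcript start, were at hand for 8 of the 10 genes and for 27025 genes in all. *Tap2* and *Nlrc5* had no entry. The letters searched on both strands were TGACG for the X2 element of the X box, CCAAT for the Y box, GGGGATTCC for the kappaB site, GAAANNGAA for the core of the interferon response element and TTCNNNGAA for a GAS element. No match overlapped another in the stretches shown. In the sequences below, read 5′ to 3′ on the strand of the gene, capitals mark the kappaB site or interferon response element, the X2 element and the Y boxes (ATTGG where the Y box lies on the other strand).
H2-K1: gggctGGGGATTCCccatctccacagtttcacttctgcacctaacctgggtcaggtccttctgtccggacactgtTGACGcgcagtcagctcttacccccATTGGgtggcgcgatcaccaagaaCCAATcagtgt
H2-D1: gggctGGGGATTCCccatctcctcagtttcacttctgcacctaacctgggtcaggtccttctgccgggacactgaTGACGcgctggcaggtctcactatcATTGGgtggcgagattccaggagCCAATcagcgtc
B2m: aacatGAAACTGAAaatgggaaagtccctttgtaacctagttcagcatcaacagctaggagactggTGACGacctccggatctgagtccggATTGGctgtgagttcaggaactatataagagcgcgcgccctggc

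These 3 stretches lie at chr17:34000329-34000463 on the minus strand for *H2-K1*, chr17:35262918-35263052 on the plus strand for *H2-D1*, and chr2:122147543-122147677 on the plus strand for *B2m*. *H2-K1* and *H2-D1* were identical at 89 of 100 bases from the kappaB site to the first Y box. They were 2 of only 70 genes with these kappaB letters, or 0.259% of all promoters. *B2m*, on another chromosome and with no such kappaB letters, had an interferon response core at 139 bases before its start, as did 8.57% of all promoters. Only exact letters were searched, so variant forms of either element would have been missed. Whether *B2m* and the heavy chains differ in these 2 elements therefore cannot be read from the matches. In lower case, both heavy chain stretches hold tttcacttc, which on the other strand has the 2 parts of the interferon response core in reverse order. The *B2m* stretch holds gggaaagtccc, which resembles a kappaB site. Neither form was among the letters searched, so the capitals do not set *B2m* apart from the heavy chains. In all 3 genes the first Y box on the other strand began exactly 25 bases after the X2 element. This spacing occurred in 26 promoters, or 0.0962% of all, and 3 of the 8 members had it. Another of the 26 was *H2-M3*, a further class I heavy chain of the MHC. Most of the 26 belonged to genes outside the class I family. On the MHC stretch lay 7 of the 26, or 26.9%, where 0.636% of all promoters lie. These 7 include *H2-K1*, *H2-D1* and *H2-M3*. The spacing was looked for after the 3 promoters had been read, and its presence in them is therefore a description. The single elements are common, as TGACG was found in 5681 and CCAAT in 10248 of the 27025 promoters.

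*Tap1* and *Psmb9* are transcribed away from each other, with RefSeq starts 226 bases apart, and 275 of the 300 bases of their windows are the same DNA. In the GENCODE places given below, the 2 genes overlap instead. A part of this shared DNA is shown (chr17:34187329-34187499, plus strand, read towards *Tap1*). It held an X2 element 86 bases before the start of *Tap1* and a Y box beside the start of *Psmb9*, both in capitals here. It had no second element at the spacing above.
Tap1 and Psmb9: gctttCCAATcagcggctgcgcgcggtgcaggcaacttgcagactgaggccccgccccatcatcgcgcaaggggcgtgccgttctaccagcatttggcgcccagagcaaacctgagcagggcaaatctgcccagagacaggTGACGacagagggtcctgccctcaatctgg

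The other promoters held less. In *Psmb8* only a GAS element was found, in capitals in the following 60 bases (chr17:34198088-34198147, plus strand), and 8.47% of all promoters had one.
Psmb8: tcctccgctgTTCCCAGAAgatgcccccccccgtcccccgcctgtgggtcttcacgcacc

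In *Tapbp* 2 Y boxes were found, and in *Psmb10* none of the 5 elements. The GENCODE starts of *Psmb8* (34197721) and *H2-D1* (35262730) lie upstream of the stretches shown for them. Windows at those starts were not searched. A match or its absence says nothing on whether a factor was bound in these mice.

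For each gene the authors deposited 1 value per genotype, in counts normalized for library size, so for the 10 members neither a spread between mice nor a test could be computed. These values are shrunken summaries and not means of the 3 libraries: their mean is the mean over all 6 libraries, and their ratio is drawn towards 1 where reads are few or uneven. A gene was called when its log2 ratio of Npffr1-KO to wild-type was at least 0.5 in size (1.41-fold), and the 15309 genes whose mean reached 10 normalized counts were compared. The values add up to 23137343 in wild-type and 23640005 in Npffr1-KO. For genes with few reads, the whole-number counts of each library, called reads here, could be worked back, which gave size factors from 0.916 to 1.04. *Npffr1* itself had 1, 0 and 5 reads in the wild-type libraries and 0, 0 and 0 reads in the Npffr1-KO libraries, too few to check the genotypes by it. One Npffr1-KO library (named a here) stood apart, with 215 reads of the muscle gene *Ckm* against 1 to 6 in the other 5. The members have too many reads for this decomposition, so they could not be given without that library. The adipocyte markers *Fabp4*, *Lpl* and *Cfd*, which the labelled tissue should express, had 156285, 136814 and 92905 normalized counts in wild-type.

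All 10 members had higher values in Npffr1-KO than in wild-type, although *B2m* stood at -0.007 on the log2 scale once it was set against genes of like length. Of these, 2 were called higher, *Psmb9* and *Psmb8*, and 0 were called lower, where 4.37% of all compared genes were called higher and 4.78% lower. The log2 ratios of the members lay between 0.15 and 0.62 with a median of 0.21, beside a median of 0.008 over all genes, of which 51.2% were above 0. Summed over the 10 genes the level was 104351 normalized counts in wild-type, and the 120768 in Npffr1-KO were 15.7% more. These differences carry no error, and whether they exceed the spread between mice was not tested.

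**Figure D1:**
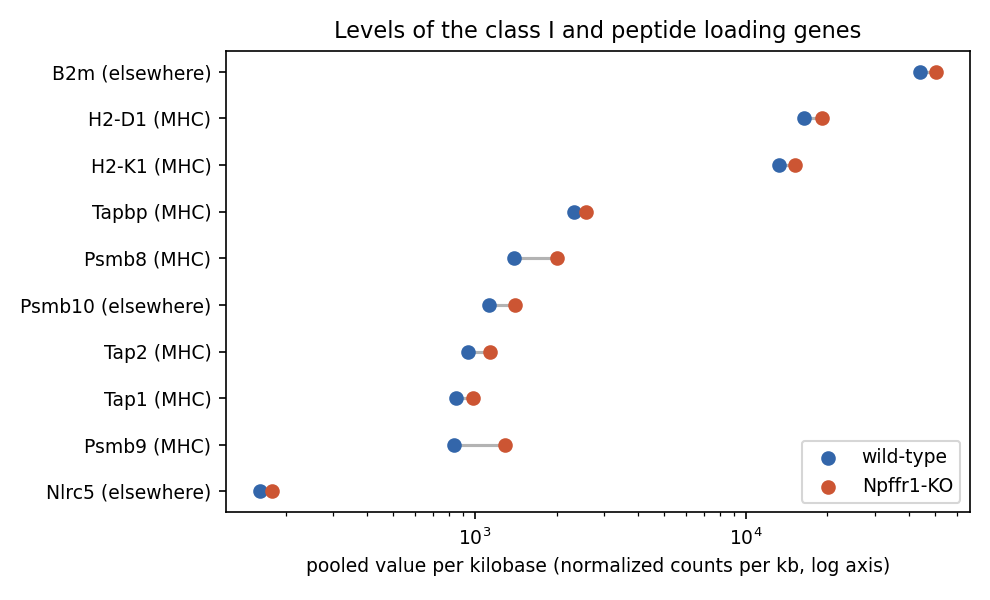
Pooled value of each of the 10 genes per kilobase of gene length (normalized counts per kb, log axis) in wild-type (blue) and Npffr1-KO (red), with the place of the gene in brackets. Each point is 1 value per genotype with no error, all 10 red points lie to the right of the blue ones before any correction for gene length, which takes *B2m* to -0.007, and the widest gaps are those of *Psmb9* and *Psmb8*.

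The heavy chains and their light chain were among the highest transcripts of the tissue. Gene places are those of GENCODE M21 on build GRCm38. *B2m* (chromosome 2, 122147686 to 122153083) had a value of 37572 normalized counts in wild-type, against 43141 in Npffr1-KO, a log2 ratio of 0.20. *H2-D1* (chromosome 17, 35262730 to 35267499) had 28515 and 33104 normalized counts, a log2 ratio of 0.22. For *H2-K1* (chromosome 17, 33996017 to 34000347) the values were 22126 and 25226, a log2 ratio of 0.19. In wild-type these 3 genes exceeded 99.8%, 99.7% and 99.5% of the listed genes. The ratios of the light chain and both heavy chains lay within 0.19 to 0.22, but against genes of like length they were -0.007 for *B2m*, 0.10 for *H2-D1* and 0.07 for *H2-K1*. Per kilobase of gene length, *B2m* reached 1.48 times the sum of *H2-D1* and *H2-K1* in wild-type and 1.47 times in Npffr1-KO. *H2-D1* lay above *H2-K1* per kilobase in both genotypes, by 1.24-fold and 1.26-fold. Of the 31-base sequences of their annotated transcripts, 26.7% for *H2-D1* and 22.8% for *H2-K1* also occur in other genes, most often in each other, so their separate values are uncertain. For *B2m* this share was 0.

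The peptide loading genes were lower in level, and none of the 3 was called. *Tapbp* (chromosome 17, 33915899 to 33929292), which encodes tapasin and bridges the transporter and the heavy chain, had values of 6355 (wild-type) and 7049 (Npffr1-KO) normalized counts, a log2 ratio of 0.15. *Tap1* (chromosome 17, 34187553 to 34197225), one chain of the peptide transporter, had 2515 and 2896, a log2 ratio of 0.20. *Tap2* (chromosome 17, 34203527 to 34216321), the other chain, had 2339 and 2833, a log2 ratio of 0.28. Against genes of like length the values were 0.13 for *Tapbp*, 0.20 for *Tap1* and 0.25 for *Tap2*. Per kilobase the transporter chains were close to each other, with a ratio of *Tap1* to *Tap2* of 0.908 in wild-type and of 0.863 in Npffr1-KO.

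The immunoproteasome subunits had the 3 highest ratios of the set before the length class was taken off, and *Psmb10* stood behind *Nlrc5*, *Tap2* and *Tap1* after it. *Psmb9* (chromosome 17, 34181987 to 34187764), the beta1i subunit, had values of 676 (wild-type) and 1036 (Npffr1-KO) normalized counts, a log2 ratio of 0.62. *Psmb8* (chromosome 17, 34197721 to 34201454), the beta5i subunit, had 1709 and 2449, a log2 ratio of 0.52, which passed the threshold by only 0.019. *Psmb10* (chromosome 8, 105935735 to 105938444), the beta2i subunit, had 1427 and 1791 with a log2 ratio of 0.33 and was not called. Of all compared genes, 97.6%, 96.0% and 88.4% had a lower ratio than *Psmb9*, *Psmb8* and *Psmb10*. *Psmb9* and *Tap1*, whose RefSeq starts share a promoter region, had different ratios, and per kilobase *Tap1* stood at 1.02 of *Psmb9* in wild-type and at 0.764 in Npffr1-KO. The 2 genes differ in length, and the gap was smaller after the length class was taken off, with 0.35 for *Psmb9* and 0.20 for *Tap1*.

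Each immunoproteasome subunit replaces a constitutive one, and both can be compared per kilobase. The ratio of *Psmb9* to *Psmb6* was 0.399 in wild-type and 0.510 in Npffr1-KO. For *Psmb8* and *Psmb5* the ratio was 1.03 and 1.13, and for *Psmb10* and *Psmb7* it was 0.565 and 0.611. The 3 inducible subunits together stood at 0.616 of the 3 constitutive ones in wild-type and at 0.712 in Npffr1-KO. The constitutive subunits had ratios above 0 as well, with log2 ratios of 0.38 for *Psmb5*, 0.26 for *Psmb6* and 0.21 for *Psmb7*, and none was called. Of the 31-base sequences of *Psmb5*, 71.7% occur in other annotated genes, mostly in a single one, so its value is uncertain. The thymic subunit *Psmb11* had 97.7 and 81.4 normalized counts.

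*Nlrc5* (chromosome 8, 94434356 to 94527272), the transactivator of class I genes, had 1116 normalized counts in wild-type, 1242 in Npffr1-KO and a log2 ratio of 0.15. Per kilobase it was the lowest of the set, with 161 in wild-type, under the 839 of the next gene in the order, *Psmb9*. The order per kilobase in wild-type was *B2m*, *H2-D1*, *H2-K1*, *Tapbp*, *Psmb8*, *Psmb10*, *Tap2*, *Tap1*, *Psmb9* and *Nlrc5*. In Npffr1-KO *Psmb9* stood above *Tap2* and *Tap1*, and the remaining order was the same. Because each level is a single value, neighbours as close as *Tap1* with 853 and *Psmb9* with 839 normalized counts per kilobase in wild-type cannot be ranked against an error.

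Short genes were generally higher and long genes lower in Npffr1-KO, and the members differ widely in length, from the 806 bases of *Psmb9* to the 6945 bases of *Nlrc5*. The median log2 ratio was 0.27 in the shortest of 20 length classes and -0.14 in the longest. When the median of the length class was taken off each ratio, 0 of the 10 members were called, beside 3.38% of all genes called higher and 5.18% called lower. *Psmb9* and *Psmb8* then each had 0.35, *Nlrc5* 0.28, *Tap2* 0.25 and *Tap1* 0.20. *Psmb10* had 0.16, *Tapbp* 0.13, *H2-D1* 0.10, *H2-K1* 0.07 and *B2m* -0.007. *Psmb9* kept the highest value on both scales, while *Nlrc5*, the longest, moved up and *B2m* fell to the level of its class. Of the 10 genes, 6 lay above the upper quartile of their own class and 4 within its middle part, *H2-D1*, *H2-K1*, *Tapbp* and *B2m*.

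**Figure D2:**
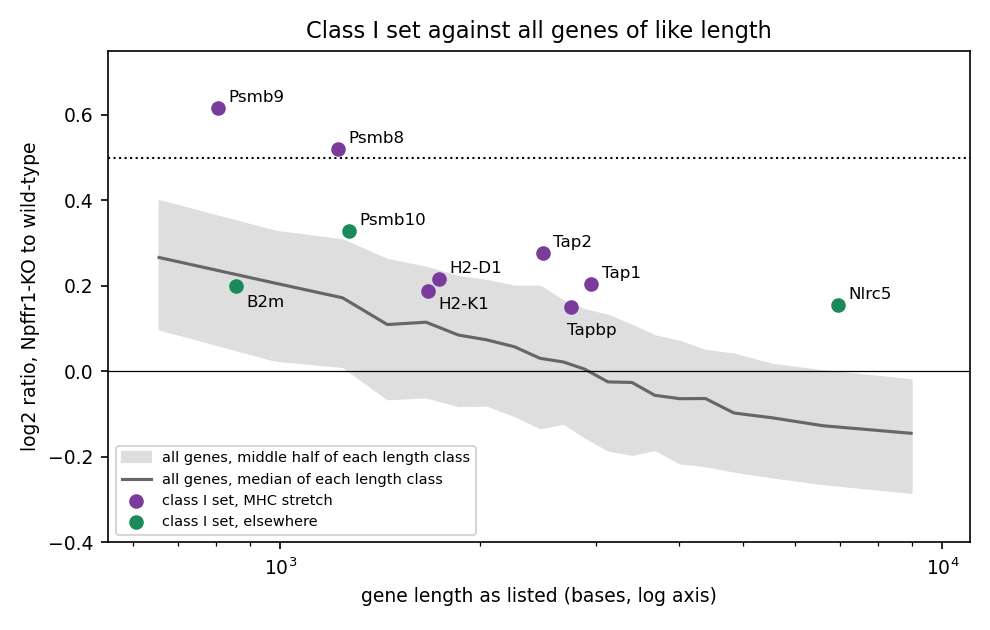
Log2 ratio of Npffr1-KO to wild-type against gene length (bases, log axis) for the 10 genes, with those on the MHC stretch in purple and those elsewhere in green. The grey line and band are the median and the quartiles of all genes in each of 20 length classes, and the dotted line is the threshold of 0.5. *Psmb9* and *Psmb8* lie above the dotted line, and *B2m* lies on the grey line.

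Members on and off the MHC stretch had much the same ratios. The 7 on the stretch had a median log2 ratio of 0.22 and a range of 0.15 to 0.62, and the 3 elsewhere had a median of 0.20 and a range of 0.15 to 0.33. The difference of the medians was 0.016, or 0.043 after the length class was taken off. Both called members were on the stretch, and all 3 genes elsewhere lay within the range of the 7, except that *B2m* at -0.007 fell below it after the length class was taken off. With so few genes and no replicate values, no test of this difference was run.

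Among all genes of the stretch, from *Tapbp* to *H2-M3*, the called members sat in a group of class II genes. The stretch held 128 compared genes, of which 13 were called higher and 5 lower, and 5 were called higher after the length class was taken off. Its median log2 ratio was 0.14. In an interval marked off after the values were seen, from *H2-Oa* to *H2-Eb2* over 249 kb, 8 of 14 genes were called higher, and 4 of the 14 were members. After the length class was taken off 3 of the 14 were called higher, none of them a member, where the shares of all genes were 4.37% before and 3.38% after. In this interval *Psmb9*, *Tap1*, *Psmb8* and *Tap2* follow each other in that order. The log2 ratios along this run were 0.62, 0.20, 0.52 and 0.28, so the called proteasome genes alternated with transporter genes that were not called. The proteasome genes are the shorter ones. After the length class was taken off the run was 0.35, 0.20, 0.35 and 0.25, and none of these genes was called. The class II genes around them encode molecules that present peptides to CD4+ T cells or act in the loading of such molecules. Of these, 6 of 9 were called, with a median of 0.58, and 3 of 9 after the length class was taken off, with a median of 0.37. The 6 were *H2-Oa* (0.58), *H2-DMb2* (0.77), *H2-Ab1* (0.53), *H2-Aa* (0.59), *H2-Eb1* (0.62) and *H2-Eb2* (0.87). The 100 other genes of the stretch had a median of 0.09, with 4 called higher (*Ltb*, *Tnf*, *Cdsn* and *Ier3*) and 5 called lower (*Ager*, *Egfl8*, *C4a*, *Atp6v1g2* and *Gabbr1*). *Tapbp*, *H2-K1* and *H2-D1*, which lie outside the interval, had log2 ratios of 0.15, 0.19 and 0.22.

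**Figure D3:**
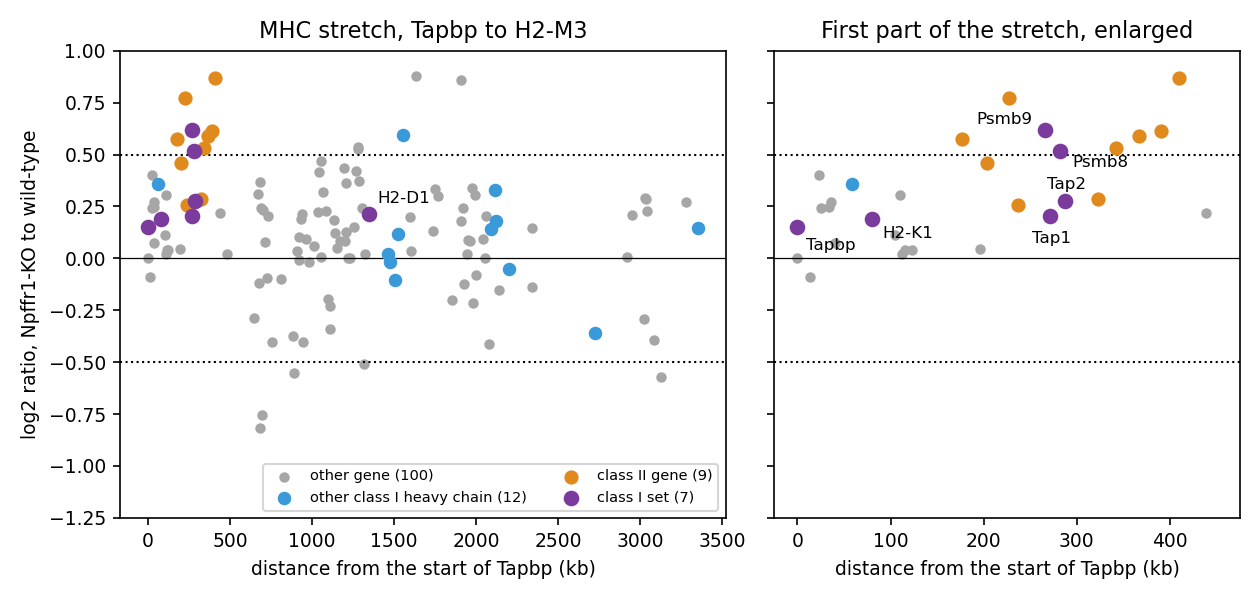
Log2 ratio of Npffr1-KO to wild-type for 128 genes against the distance of their start from that of *Tapbp* (kb), whole on the left and the first part enlarged on the right, with dotted lines at the thresholds of 0.5 in size. The 7 class I set genes are purple, class II genes orange, other class I heavy chains blue and other genes grey, and *Psmb9* and *Psmb8* lie above the upper line among class II genes.

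The other class I heavy chains of the MHC, many of them nonclassical, were less uniform. Of 30 on the list 27 were in the table and 15 had a mean of at least 10, with a median log2 ratio of 0.15. Of these 15, 11 had a ratio above 0, 2 were called higher and 0 lower, where 4.37% of all genes were called higher and 4.78% lower. After the length class was taken off, 1 was called higher, *H2-M2* with 0.73, and *H2-Q10* with 0.49 was not called. *H2-M9* was then called lower with -0.56, beside 3.38% of all genes called higher and 5.18% lower. The called genes were *H2-M2*, with 288 normalized counts in wild-type, 516 in Npffr1-KO and a log2 ratio of 0.84, and *H2-Q10*, with 141, 212 and 0.60. *H2-M2* lies beyond *H2-M3* and is not among the 128 genes above. The highest in level were *H2-Q4*, *H2-T22*, *H2-T23* and *H2-Q9*, with log2 ratios of 0.02, 0.18, 0.33 and 0.34. *H2-T23* encodes Qa-1, a ligand of receptors on NK cells. Several of these genes share much sequence, as 38.4% of the 31-base sequences of *H2-Q4*, 51.0% of those of *H2-T22*, 24.5% of those of *H2-T23* and 30.3% of those of *H2-Q10* occur in other genes, so their single values are uncertain. For *H2-M2* the share was 3.20%. *H2-Q9* had no GENCODE place, so its share could not be computed and its value is uncertain too. Class I-like genes on other chromosomes, such as *Fcgrt*, the neonatal Fc receptor, and *Cd1d1*, which presents lipids, had ratios from -0.22 to 0.21, and 0 of 4 were called.

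Reads per library could be worked back for all 15 of the class I and class I-like genes with a mean of at most 100, and these are the genes of this family for which mice can be compared. Of the 6 with a mean between 2 and 15 normalized counts, 3 had reads that did not overlap between the genotypes, as did 12.3% of all 2360 genes in that range. *H2-T3*, which encodes the thymus leukaemia antigen, had 6, 6 and 7 reads in wild-type and 2, 3 and 3 in Npffr1-KO. The normalized counts were 6.21 ± 0.644 and 2.74 ± 0.717 (SD, n = 3 each; exact permutation test, two-sided, p = 0.1). *H2-M9* had 12, 15 and 12 reads against 7, 10 and 9, or 12.7 ± 1.70 and 8.89 ± 1.86 normalized counts (SD, n = 3 each; exact permutation test, p = 0.1). *H2-M5* was in the other direction, with 7, 0 and 5 reads against 12, 8 and 15, or 3.91 ± 3.50 and 12.0 ± 4.16 normalized counts (SD, n = 3 each; exact permutation test, p = 0.1). A p of 0.1 is the smallest that 3 against 3 libraries can give, so none of these differences could pass 0.05. Any gene without overlap gets this p. The other 3 genes, *H2-Q2*, *H2-T9* and *Cd1d2*, overlapped (exact permutation test, p = 0.4, 0.7 and 0.2). Without Npffr1-KO library a, the difference of Npffr1-KO less wild-type was -3.06 instead of -3.46 normalized counts for *H2-T3*, -2.77 instead of -3.84 for *H2-M9*, and 8.31 instead of 8.09 for *H2-M5*. The 9 remaining genes had at most 6 reads in all 6 libraries together, too few for a comparison.

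**Figure D4:**
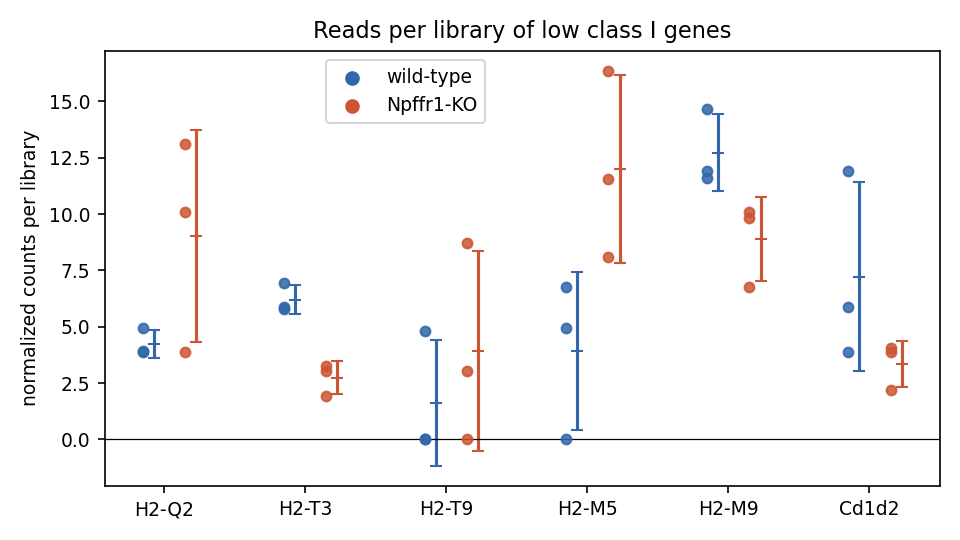
Normalized counts per library of 6 class I and class I-like genes with few reads, in 3 wild-type (blue) and 3 Npffr1-KO (red) libraries; points are libraries, and the bars beside them give the mean and SD. The 2 genotypes do not overlap in *H2-T3* and *H2-M9*, where wild-type is higher, and in *H2-M5*, where Npffr1-KO is higher.

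Partners of loading and peptide supply were mostly a little higher. Of 18 such genes, 16 had a ratio above 0, with a median log2 ratio of 0.14, and 1 was called in each direction. Of all compared genes, 4.37% were called higher and 4.78% lower. *Psme2*, a subunit of the proteasome activator PA28 that interferon induces, had values of 2934 (wild-type) and 4457 (Npffr1-KO) normalized counts, a log2 ratio of 0.60. Of its 31-base sequences, 33.5% also occur in 2 other genes. *Psme1*, which encodes the other PA28 chain, had a log2 ratio of 0.21. *Ide*, the insulin-degrading enzyme, was called lower with -0.52. Of the most abundant partners, the chaperones *Calr* and *Canx* had 0.26 and 0.04, and *Pdia3* and *Ganab* had 0.16 and 0.04. When the length class was taken off, the median was 0.13 and 0 were called higher.

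Of 15 transcription factors and cofactors that act on class I and class II promoters, *Ciita* was the only one called. Among all compared genes 4.37% were called higher and 4.78% lower. *Ciita*, the class II counterpart of *Nlrc5*, had values of 253 (wild-type) and 409 (Npffr1-KO) normalized counts, a log2 ratio of 0.69, and 0.80 after the length class was taken off. The median of the 15 was 0.10. Among the most abundant, *Rela*, *Nfkb1* and *Irf1* had log2 ratios of 0.11, 0.09 and 0.16.

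Both interferon lists had medians near that of all genes, of which 4.37% were called higher and 4.78% lower. Of 14 genes of the interferon-gamma pathway, which include *Ifng*, its receptors and kinases as well as genes it induces, 6 had a ratio above 0 and 8 below, with a median of -0.02. *Ifng* was called higher with a log2 ratio of 0.56, and its reads of 6, 6 and 14 in wild-type and 20, 14 and 11 in Npffr1-KO overlapped (exact permutation test, p = 0.2). *Iigp1* was called lower with -0.64. The most abundant, *Jak1*, *Ifngr1* and *Ifngr2*, had 0.09, -0.13 and 0.18. Of 15 type I interferon genes 0 were called, with a median of 0.03, and *Bst2*, *Stat2* and *Irf9* had 0.20, -0.32 and -0.01.

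Markers of T and NK cells had higher values in Npffr1-KO as well. All 10 had a ratio above 0 and 9 were called higher, with a median log2 ratio of 0.64. After the length class was taken off, 8 were called and the median was 0.55. Of all compared genes, 4.37% were called higher before and 3.38% after. The summed level of the 10 markers was 9168 normalized counts in wild-type against 14488 in Npffr1-KO. By the mean of both genotypes the most abundant of them were *Lck*, *Cd4* and *Cd3g*, which had log2 ratios of 0.74, 0.55 and 0.77. None of the 10 was at 0, and the lowest, *Gzma*, had 62, 35 and 35 reads in wild-type and 70, 41 and 65 in Npffr1-KO. B cell markers summed to 8704 and 10361 normalized counts, with 5 of 5 above 0, 0 called and a median of 0.27. Among the most abundant of them, *Cd79a* and *Cd79b* had 0.33 and 0.27. Macrophage markers summed to 20136 and 23597, with 4 of 6 above 0 and 0 called, and *Lyz2*, *Csf1r* and *C1qa* had 0.37, -0.07 and 0.24. Dendritic cell markers summed to 1174 and 1229, with 3 of 5 above 0 and *Cd209a* called, while *Itgax*, *Zbtb46* and *Flt3* had 0.03, -0.25 and 0.44. Endothelial markers, from cells rich in class I, had lower values in Npffr1-KO. Their sum was 59973 in wild-type and 46804 in Npffr1-KO, 5 of 5 were below 0 and 0 were called, and *Cdh5*, *Pecam1* and *Cldn5* had -0.37, -0.28 and -0.44. Of the adipocyte markers, 3 of 5 had a ratio above 0 and 0 were called. The part of any of these cells in the ratios of the members was not tested.

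**Figure D5:**
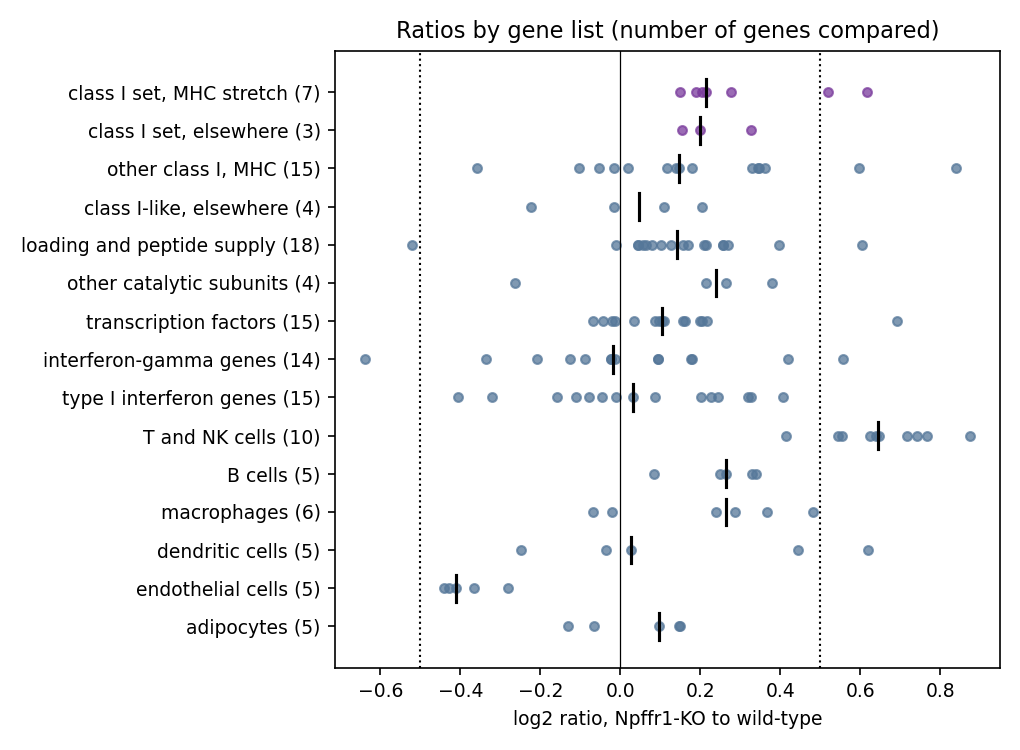
Log2 ratio of Npffr1-KO to wild-type for each compared gene of 15 lists, with the number of genes in brackets, the median as a black bar and dotted lines at 0.5 in size. The 10 members (purple) all lie above 0 before correction for gene length (*B2m* at -0.007 after it), T and NK cell markers lie farthest to the right with a median of 0.64, and endothelial markers lie farthest to the left.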

How the data were processed

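The authors' deposited table gives, for each gene, 1 signal value per genotype: reads counted per gene and normalized for library size with DESeq2 by the authors, and here treated as pooled values with no error. Bowtie2, RSEM and DESeq2 are named in the submitters' processing notes, without versions, and the genome build is not given in the sources used here. The table's columns of fold changes and p-values, the authors' own comparison, were not used, nor was a second table, which repeats 90 of its genes.

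The log2 ratio was computed from the pooled values with Python 3.11.15, pandas 2.3.3 and numpy 2.4.6, with no pseudocount. The deposited table holds no value per sample, so no model was fitted across samples. Whole reads per library were found, for genes with a mean of at most 100, as the only combination of multiples of the 6 single-read values that matched the mean to its printed precision, with under 0.01 accidental matches counted. The search was tested on simulated data. Because RSEM estimates counts where reads fit several genes, the whole numbers found may be rounded estimates and not observed reads. The libraries are known by genotype, not by sample number, and were given letters. They were compared by exact permutation tests (scipy 1.17.1). In the 1283 genes with a mean of 2 to 15 and a log2 ratio of at least 0.5 in size from these reads, the ratio of the deposited values was the smaller for 100%, with a median of 0.425 times the log2 ratio from reads. For *Ckm* the deposited values were 27.5 and 46.4, while the means of the reads were 2.28 and 71.6 normalized counts. How far the members were shrunken is not known.

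Gene places came from GENCODE M21 (GRCm38) and promoters from RefSeq (GRCm38.p6). Named were all members, listed partners that were called or among the 4 most abundant (by the mean of both genotypes), called genes of the MHC stretch and the 3 most abundant markers of each list. Single values of some genes that this rule names are not reported here. Genes named beside these (*Psme1*, *H2-M3*, *Psmb11*, *Gzma*, *Ckm* and the low class I genes) fall outside this rule and were picked once their values were known. The members and lists were chosen with earlier results of these data known. Whether the samples came from separate litters is not stated. Each p-value only places a difference of means among those from all regroupings of these 6 libraries, 3 against 3. Alternatives were other thresholds, minimums, a pseudocount, and centring on all genes or on those of like length.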

Additional observations from a re-analysis of the deposited data

How the results depend on the processing

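No paired analysis was possible because the deposited columns hold 1 value per genotype and the recovered libraries carry no sample number. The count of members called higher was 2 as reported, 0 when each ratio was centred on genes of like length and 0 at a threshold of 1, where 0.483% of all genes were called. It was 3 at a threshold of 0.3, where 13.7% of all genes were called, and it was 2 with no minimum, with a minimum of 50, with a pseudocount of 10 and when centred on the median gene. The difference of the medians on and off the MHC stretch lay between -0.048 and 0.046 when each member was left out in turn, so its sign rested on single genes. Of 30 values of single members under the alternatives, 29 were above 0, the exception being *B2m* at -0.007 on the scale of like-length genes. Divided by length or not, 4 of the 10 members held the same place in the order by level. Among the low class I genes, the difference of Npffr1-KO less wild-type for *H2-T9* was 2.31 normalized counts with all libraries and -0.096 without Npffr1-KO c, and for *Cd1d2* -3.86 and -1.51 without wild-type c. For *H2-Q2* it was 4.77 with all libraries, 2.73 without Npffr1-KO c and 7.35 without Npffr1-KO a. For *H2-T3* it lay between -3.73 and -3.06, for *H2-M9* between -4.45 and -2.77, and for *H2-M5* between 5.91 and 10.06. Few reads limit these genes, and no interval was computed for the members.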

Other observations

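Skeletal muscle and skin markers, which belong to neither iAT nor the class I genes, were read from the same table. All 4 muscle markers compared had ratios above 0 and 3 were called, with 171 normalized counts of *Acta1* in wild-type and 410 in Npffr1-KO, while *Myh4* had a single read in all 6 libraries. The reads of *Ckm* lay almost wholly in Npffr1-KO library a, with 215 there, 1 and 6 in the other Npffr1-KO libraries and 2, 3 and 2 in wild-type. The keratinocyte gene *Krt5* had 21 reads in the same library, 11 in wild-type library c and 0 in the other 4. *Krt10*, the only keratinocyte marker compared, had 79.4 and 72.4 normalized counts. For members and lists on the MHC stretch, the part of that library was not tested.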
